A study of Tetranychus cinnabarinus with 8 samples.

Results

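The transcripts described here are the most abundant ones of adult females of the carmine spider mite, T. cinnabarinus. They were chosen as gene models longer than the shortest one listed in each of the 8 libraries, with a mean RPKM of 1000 or more over the 4 libraries of solvent-treated mites, where a gene missing from a library counted as 0. RPKM is the number of reads on a gene model scaled by its length and by the mapped reads of the library. The deposited values fit a length somewhat shorter than the one listed, which raises the RPKM of the shortest gene models most. Of 15764 genes listed in at least 1 library, 71 reached this limit. The apolipoprotein D gene tetur09g04920 was left out by name, 0 of the others shared both its length and its estimated reads with another gene, and 70 remained. The transcripts were thus chosen by their solvent RPKM, so a high level in the solvent libraries is not a result. All 70 passed the filter on low counts, and the smallest number of reads on any of them in any library was 1598.

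RNA-Seq was run on live adult mites of a susceptible laboratory strain, labelled as 2-day old and described as females in the methods of the study. The mites were collected 24 h or 48 h after spraying with curcumin at 2.64 mg/mL, or with the solvent alone, which was water with a detergent and acetone that the curcumin spray contained too. Each of the 4 groups had 2 libraries, which makes 8 libraries. By the methods each replicate of a group came from pooled mites of an independent experiment. Whether different groups shared an experiment is not given. Mites that had died were not collected, so the curcumin libraries describe survivors of a median lethal concentration. A library holds whole mites, so a lower level of an RNA in a tissue and less of that tissue cannot be told apart.

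As background, RPKM sums over a whole animal, and a transcript can lead the list because many cells hold it or because 1 tissue makes a great deal of it. In egg-laying female arthropods the vitellogenins, large precursors of the yolk proteins, are known for high levels, and in most animal cells the transcripts for ribosomes, the cytoskeleton and energy metabolism are abundant. The sources used here do not give which of the 70 transcripts belong to such groups. The files give identifiers without names, and the tables of the study list 2 of the 70. Of these, tetur01g16874 is listed under lysine degradation, a pathway of amino acid breakdown. The other, tetur12g01560, is listed under regulation of the actin cytoskeleton and under heterocyclic compound binding. The other 68 are described by their identifiers. The only gene named as a vitellogenin, tetur39g00730, is not among the 70. Its RPKM ran from 1.59 in a solvent library at 24 h to 23.9 in a solvent library at 48 h. Among the 70, tetur39g00700, tetur39g00720 and tetur39g00810 have identifiers close to it, and the sources used here do not give their products. The low level of tetur39g00730 therefore does not show that yolk transcripts were low. Whether the mites were laying eggs could not be checked beyond this 1 gene.

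The reads estimated on genes came to between 8033325 and 8617973 per library. The TMM scaling factors of edgeR ran from 0.933, in the first solvent library at 48 h, to 1.05. That library also held the largest number of transcripts at their highest RPKM, 17 of 70, against 1 to 12 in the other 7 libraries. The shortest gene model listed measured 132 and 131 bp for curcumin 48 h and at least 140 bp elsewhere.

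The 70 transcripts took about the same part of the reads in every library. Their share of the estimated reads was 33.1% and 32.5% for solvent 24 h, 35.4% and 33.5% for solvent 48 h, 33.8% and 33.1% for curcumin 24 h, and 34.1% and 33.5% for curcumin 48 h. The highest share was that of solvent 48 h library 1, and the lowest that of solvent 24 h library 2. The mean share was 32.8% ± 0.434 (SD, n = 2) in solvent and 33.4% ± 0.522 (SD, n = 2) in curcumin at 24 h. At 48 h it was 34.5% ± 1.36 (SD, n = 2) in solvent and 33.8% ± 0.427 (SD, n = 2) in curcumin. Over both times the 4 solvent libraries had 33.6% ± 1.28 (SD, n = 4) and the 4 curcumin libraries, which the choice of the transcripts did not use, had 33.6% ± 0.433 (SD, n = 4). These shares were not tested, since they are sums over chosen genes. The share of the summed RPKM, which does not weigh a gene by its length, was 33.1% ± 1.38 (SD, n = 4) in solvent and 34.0% ± 1.27 (SD, n = 4) in curcumin.

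A few long gene models held much of this share. The 4 transcripts with the most reads were tetur03g09300 (8054 bp), tetur39g00810 (5481 bp), tetur43g00010 (5480 bp) and tetur516g00020 (2607 bp). They took between 15.6% and 17.2% of the reads estimated on genes in a library, and the 10 with the most reads took between 21.6% and 23.8%. The transcript tetur03g09300 had the most reads in each library, with 5.96% and 5.92% for solvent 24 h, 5.35% and 5.41% for solvent 48 h, 5.48% and 5.40% for curcumin 24 h, and 4.71% and 5.24% for curcumin 48 h. Its share was lower in both curcumin libraries at 48 h than in the other 6 libraries. The share of tetur39g00810 was 4.32% and 4.05% for solvent 24 h, 4.67% and 4.28% for solvent 48 h, 4.31% and 4.29% for curcumin 24 h, and 4.27% and 4.34% for curcumin 48 h. For tetur43g00010 it was 3.34% and 3.49% for solvent 24 h, 3.33% and 3.49% for solvent 48 h, 3.12% and 3.04% for curcumin 24 h, and 3.73% and 3.54% for curcumin 48 h. The share of tetur516g00020 was 3.04% and 2.69% for solvent 24 h, 3.86% and 3.32% for solvent 48 h, 3.14% and 2.89% for curcumin 24 h, and 3.15% and 2.81% for curcumin 48 h. Both solvent libraries at 48 h were the highest for tetur516g00020, while tetur43g00010 was highest in both curcumin libraries at 48 h.

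**Figure D1:**
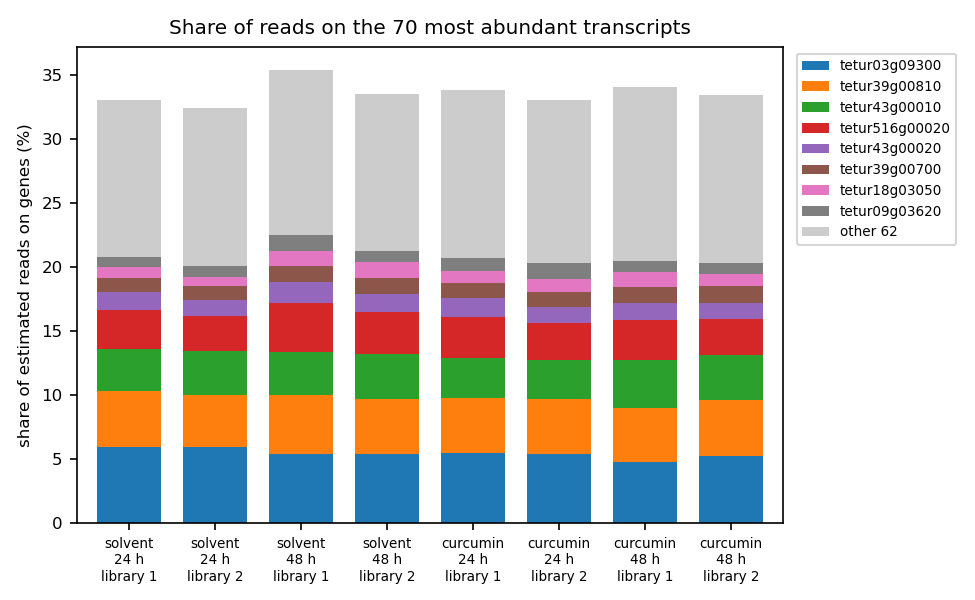
Share of the estimated reads on genes, in percent, taken by the 70 most abundant transcripts in each of the 8 libraries. Colours stand for the 8 transcripts with the most reads and grey for the other 62, and the bars reach between 32.5% and 35.4%.

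By reads, the 5 gene models over 5000 bp took 15.6% ± 0.211 (SD, n = 4) of the reads in solvent and 15.0% ± 0.277 (SD, n = 4) in curcumin, while the 20 gene models under 400 bp took 2.86% ± 0.0635 (SD, n = 4) and 2.98% ± 0.461 (SD, n = 4). By RPKM the order turned, since between 35.3% and 43.8% of the summed RPKM of the 70 came from the 20 short gene models and between 8.01% and 9.52% from the 5 longest. Only 4 transcripts were among both the first 10 by RPKM and the first 10 by reads. Of the 70 transcripts, 45 were among the 70 genes with the most reads in solvent, and the first 20 by reads over all genes were all among the 70. The short gene models took 3.59% and 3.10% of the reads for curcumin 48 h, where the shortest gene models were listed, and between 2.59% and 2.92% in the other 6 libraries. The part of the shorter limit of listing in this difference was not tested.

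The RPKM of the most abundant transcripts is given in the order of their mean over the solvent libraries. tetur18g03020 (295 bp) had an RPKM of 13031 and 18469 for solvent 24 h, 11433 and 16961 for solvent 48 h, 7913 and 9511 for curcumin 24 h, and 26114 and 15658 for curcumin 48 h. This transcript led the list in 5 of the 8 libraries, and both curcumin libraries at 24 h were below all other libraries. tetur09g03620 (581 bp) had an RPKM of 9179.9 and 9367 for solvent 24 h, 15134 and 10290.0 for solvent 48 h, 12478 and 15289.7 for curcumin 24 h, and 10454 and 9463 for curcumin 48 h. Both solvent libraries at 24 h were the lowest for this transcript. tetur01g02660 (252 bp) had an RPKM of 7373 and 7386 for solvent 24 h, 14081 and 8857 for solvent 48 h, 12795 and 13276 for curcumin 24 h, and 12366 and 13163 for curcumin 48 h. Its solvent libraries at 24 h were again the lowest, and the curcumin libraries of both times lay between 12366 and 13276. tetur516g00020 (2607 bp) had an RPKM of 7782 and 6723 for solvent 24 h, 10183 and 8440.2 for solvent 48 h, 8271 and 7615 for curcumin 24 h, and 8019 and 7261 for curcumin 48 h. It is the first long gene model of the list, and it held the fourth rank by mean RPKM in each of the 4 groups.

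The next transcripts lay around 5000. tetur39g00810 (5481 bp) had an RPKM of 5237 and 4799 for solvent 24 h, 5836 and 5155 for solvent 48 h, 5371 and 5353 for curcumin 24 h, and 5145 and 5319 for curcumin 48 h. Its highest library was 1.22-fold above its lowest. tetur05g09110 (654 bp) had an RPKM of 5470.1 and 5266 for solvent 24 h, 5791 and 4112 for solvent 48 h, 7071 and 7255 for curcumin 24 h, and 3994 and 4776 for curcumin 48 h. Both curcumin libraries at 24 h were above all others. tetur18g03050 (1378 bp) had an RPKM of 4216 and 3328 for solvent 24 h, 5951 and 5966 for solvent 48 h, 4876 and 5179.6 for curcumin 24 h, and 5499 and 4992 for curcumin 48 h. The solvent libraries at 24 h were the lowest. tetur13g04260 (185 bp) had an RPKM of 5009.6 and 5066 for solvent 24 h, 3079.6 and 6195 for solvent 48 h, 5702 and 3615 for curcumin 24 h, and 2578 and 4719 for curcumin 48 h. Replicates of this 185 bp gene model differed widely in 3 of the 4 groups, and only the solvent libraries at 24 h were close together.

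tetur01g02540 (620 bp) had an RPKM of 3744 and 4352 for solvent 24 h, 6093 and 4719.9 for solvent 48 h, 4941 and 5184 for curcumin 24 h, and 5947 and 5355 for curcumin 48 h. tetur05g01100 (261 bp) had an RPKM of 6287 and 3483 for solvent 24 h, 5216 and 3842 for solvent 48 h, 3900.1 and 3943 for curcumin 24 h, and 7949.9 and 6129.5 for curcumin 48 h. tetur03g09300 (8054 bp) had an RPKM of 4915 and 4770.2 for solvent 24 h, 4545 and 4435 for solvent 48 h, 4648 and 4581 for curcumin 24 h, and 3863 and 4363 for curcumin 48 h. The first of these was lowest in the solvent libraries at 24 h, the second differed widely between its replicates of solvent 24 h, and the third, the transcript with the most reads, was lowest in the curcumin libraries at 48 h. tetur12g02030 (335 bp) had an RPKM of 5264 and 4568 for solvent 24 h, 3637 and 4329.8 for solvent 48 h, 3828 and 4031 for curcumin 24 h, and 5027 and 4364 for curcumin 48 h. tetur43g00010 (5480 bp) had an RPKM of 4051 and 4133 for solvent 24 h, 4165 and 4214 for solvent 48 h, 3895 and 3798 for curcumin 24 h, and 4492 and 4334 for curcumin 48 h. tetur03g06910 (1104 bp) had an RPKM of 3814 and 3506 for solvent 24 h, 4708 and 4037 for solvent 48 h, 3479 and 3749.5 for curcumin 24 h, and 3875 and 3072 for curcumin 48 h. The libraries of tetur43g00010 were close together, with a highest value 1.18-fold above the lowest, against 1.45-fold for tetur12g02030 and 1.53-fold for tetur03g06910.

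tetur01g16954 (339 bp) had an RPKM of 4278 and 3595 for solvent 24 h, 3944 and 3403 for solvent 48 h, 4125 and 4408 for curcumin 24 h, and 3831 and 3818 for curcumin 48 h. tetur05g01730 (836 bp) had an RPKM of 3697 and 3666 for solvent 24 h, 4169.8 and 3257 for solvent 48 h, 5695 and 4899 for curcumin 24 h, and 3428 and 4664 for curcumin 48 h. tetur01g13320 (306 bp) had an RPKM of 2062 and 2742 for solvent 24 h, 3899 and 5266 for solvent 48 h, 1695 and 2302 for curcumin 24 h, and 2420.4 and 2815 for curcumin 48 h. Both curcumin libraries at 24 h were above the others for tetur05g01730, while the 2 solvent libraries at 48 h were above the others for tetur01g13320. tetur18g03040 (251 bp) had an RPKM of 3349 and 3725 for solvent 24 h, 3751 and 3084 for solvent 48 h, 3430.4 and 2889 for curcumin 24 h, and 5414 and 4223 for curcumin 48 h. tetur30g01850 (174 bp) had an RPKM of 2639.9 and 2125 for solvent 24 h, 3635 and 4836 for solvent 48 h, 3408 and 2855 for curcumin 24 h, and 2756 and 3483 for curcumin 48 h. tetur03g08800 (726 bp) had an RPKM of 2976 and 2838 for solvent 24 h, 4071 and 2432 for solvent 48 h, 4649 and 3945 for curcumin 24 h, and 3689 and 3842 for curcumin 48 h. The curcumin libraries at 48 h were the highest for tetur18g03040, and the solvent libraries at 48 h were the highest for tetur30g01850.

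**Figure D2:**
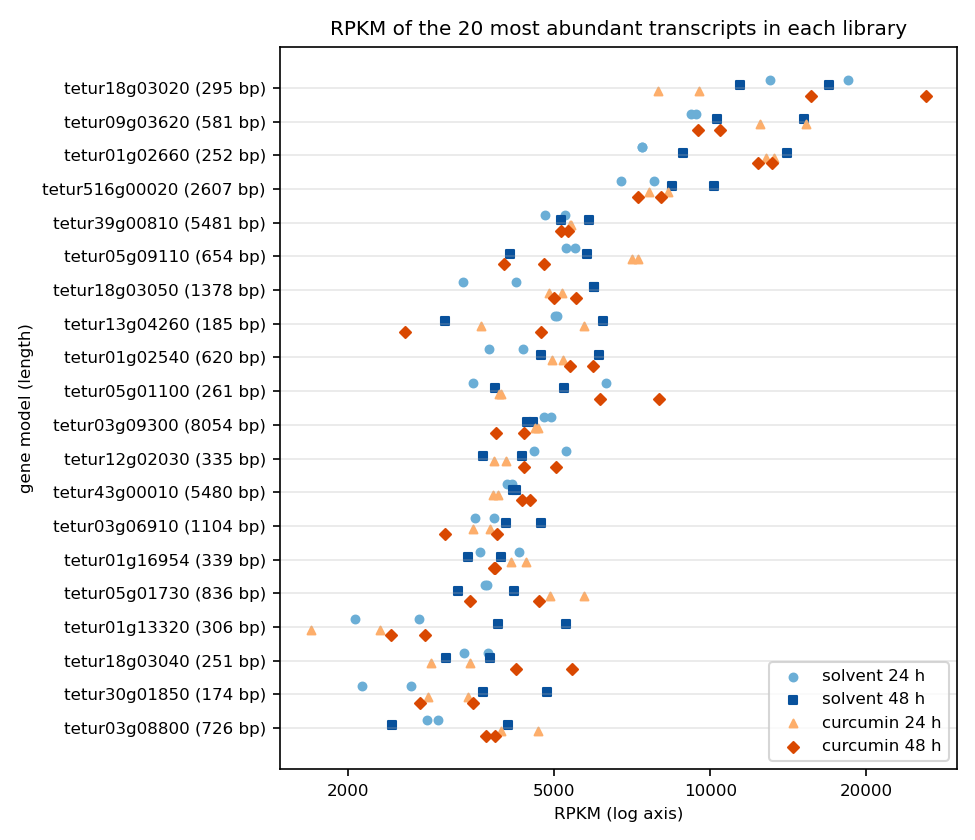
RPKM on a log axis for the 20 transcripts with the highest mean RPKM in solvent, 1 symbol per library and 2 per group. tetur18g03020 spans 7913 to 26114, while tetur43g00010 stays between 3798 and 4492.

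The transcripts below the first 20 had a mean RPKM in solvent of 1004 to 3063. Among the transcripts with the most reads, 4 more stood lower in RPKM. tetur43g00020 (5272 bp) had an RPKM of 1764 and 1560.0 for solvent 24 h, 2115 and 1772 for solvent 48 h, 1974 and 1659 for curcumin 24 h, and 1677 and 1630.3 for curcumin 48 h. tetur39g00700 (4302 bp) had an RPKM of 1707 and 1722 for solvent 24 h, 1937 and 1929 for solvent 48 h, 1827 and 1779.5 for curcumin 24 h, and 1905 and 1965 for curcumin 48 h. The solvent libraries at 48 h were above those at 24 h for tetur43g00020, and for tetur39g00700 both libraries at 48 h were above both libraries at 24 h in solvent as well as in curcumin. tetur39g00720 (5235 bp) had an RPKM of 1073 and 956 for solvent 24 h, 1051 and 1067 for solvent 48 h, 1179.7 and 963 for curcumin 24 h, and 1047 and 1021 for curcumin 48 h. tetur18g03030 (2538 bp) had an RPKM of 1885 and 1884 for solvent 24 h, 1294 and 1968 for solvent 48 h, 1616 and 1456 for curcumin 24 h, and 1758 and 1723 for curcumin 48 h. Neither showed groups that stood apart from all others.

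Around the limit of 1000, the transcripts just inside were tetur07g08179, tetur03g00230 and tetur14g02940, with a mean RPKM in solvent of 1027, 1008 and 1004. tetur07g08179 (579 bp) had an RPKM of 1107 and 1018 for solvent 24 h, 1078 and 906 for solvent 48 h, 1393 and 1213 for curcumin 24 h, and 952 and 1046 for curcumin 48 h. tetur03g00230 (1748 bp) had an RPKM of 871 and 916 for solvent 24 h, 1186 and 1061 for solvent 48 h, 881 and 1115 for curcumin 24 h, and 1164 and 983 for curcumin 48 h. tetur14g02940 (602 bp) had an RPKM of 825 and 910.2 for solvent 24 h, 1356 and 927 for solvent 48 h, 972 and 1003 for curcumin 24 h, and 896 and 775 for curcumin 48 h. The genes just outside were tetur15g01970, tetur18g03590 and tetur08g02980, with 979.5, 979.2 and 978.7. Of these, tetur15g01970 had a mean RPKM of 1186.5 in the curcumin libraries. The RPKM was at least 1000 in all 8 libraries for 49 of the 70 transcripts, and the fewest libraries in which a transcript reached it was 2.

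In the curcumin libraries, which the choice did not use, 65 of the 70 transcripts again had a mean RPKM of at least 1000. The 5 that did not were tetur05g05320, tetur01g13270, tetur07g00320, tetur14g02940 and tetur11g01660, with means between 760.2 and 915. By the same rule in the curcumin libraries there were 72 transcripts, 7 of them new. The new ones were tetur15g01970, tetur14g02720, tetur01g02610, tetur04g07960, tetur07g01280, tetur31g01040 and tetur05g03650, with mean RPKM in curcumin between 1008 and 1186.5 and in solvent between 769.8 and 979.5. In a single library between 62 and 66 of the 70 were among the 70 gene models with the highest RPKM under the same limit on length. The lowest rank of any of them among all genes was 84 to 97 in the solvent libraries and 109 to 166 in the curcumin libraries, the last for tetur12g01560 in the second curcumin library at 24 h. Choosing the transcripts by their solvent RPKM by itself favours better ranks in the solvent libraries, so these ranges do not measure a change with curcumin.

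The same 4 transcripts led the 70 in each library, in an order that changed between libraries. The transcripts tetur18g03020, tetur09g03620, tetur01g02660 and tetur516g00020 were among the first 5 in each of the 8 libraries, and tetur39g00810 was the only other one among the first 10 in each. In all, 18 transcripts were among the first 10 in at least 1 library, and 16 were among the first 20 in each. The rank of a transcript ranged over a median of 17.5 places between its best and worst library, with a maximum of 51 places for tetur12g01560. Spearman's rho of RPKM over the 70 transcripts was between 0.866 and 0.95 for the 4 pairs of replicates, with a median of 0.92. For the 24 pairs of libraries from different groups it was between 0.785 and 0.924, with a median of 0.869. Over the 13246 genes listed in all 8 libraries the medians were 0.98 and 0.977. These correlations are across genes, which are not independent replicates and span a narrower range of levels within the 70.

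**Figure D3:**
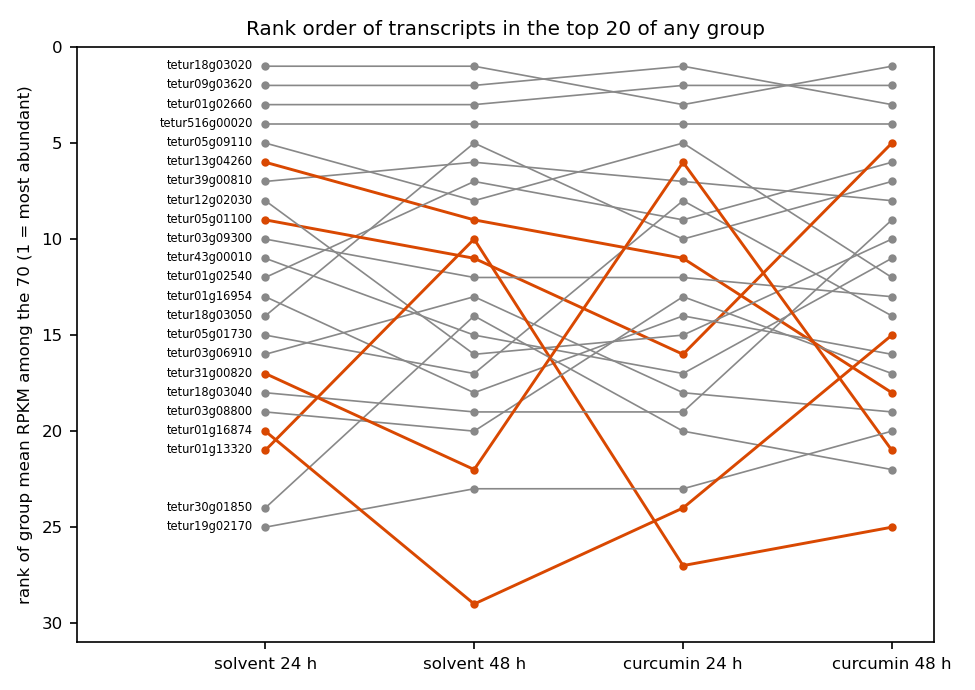
Rank of the group mean RPKM among the 70 transcripts (1 is the most abundant) in the 4 groups, for the 23 transcripts in the first 20 of any group. Orange lines mark the 5 that moved by over 10 places between groups, and 18 were in the first 20 of all 4 groups.

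The order of the first 4 by group mean was tetur18g03020, tetur09g03620, tetur01g02660 and tetur516g00020 in solvent at both times. In curcumin at 24 h tetur09g03620 came first with 13884 ± 1988 (SD, n = 2), tetur01g02660 second with 13035 ± 339.9 (SD, n = 2), followed by tetur18g03020 with 8712 ± 1130.4 (SD, n = 2). In curcumin at 48 h tetur18g03020 came first again with 20886 ± 7393 (SD, n = 2). In solvent its means were 15749.9 ± 3845 (SD, n = 2) at 24 h and 14197 ± 3909 (SD, n = 2) at 48 h. The first and second ranks overlapped in their single libraries in solvent at 48 h, where tetur18g03020 had 11433 and 16961 and tetur09g03620 had 15134 and 10290.0. The largest moves over the 4 groups belonged to tetur12g01560, which was at ranks 22 and 32 in solvent, 70 in curcumin at 24 h and 23 in curcumin at 48 h, and to tetur09g04580, at ranks 66, 52, 57 and 32 in the same order.

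The spread between libraries was measured as the SD of log2 RPKM over the 8 libraries. Its median over the 70 transcripts was 0.24, with a range from 0.08 to 0.88, against a median of 0.26 over the 13246 genes listed in all 8 libraries and 0.20 over the 737 genes with a mean RPKM of 100 to 1000 in solvent. The highest library was over 2-fold above the lowest for 11 of the 70 transcripts, which is 15.7%, against 36.1% of all genes listed in all libraries and 13.6% of the genes with 100 to 1000. Replicates of a group differed by a median of 0.22 on the log2 scale over the 70 transcripts, and libraries of different groups by 0.28. The same medians were 0.27 and 0.31 over the genes listed in all 8 libraries, and 0.20 and 0.24 over the genes with 100 to 1000. These values describe the libraries and were not tested.

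The steadiest transcripts were mostly long gene models. The 5 with the smallest SD were tetur43g00010, tetur39g00810, tetur39g00700, tetur08g00400 and tetur39g00720, with SD of 0.08, 0.08, 0.08, 0.08 and 0.10 on the log2 scale. tetur08g00400 (1009 bp) had an RPKM of 1072 and 1054 for solvent 24 h, 1136 and 1021 for solvent 48 h, 1019.7 and 1215 for curcumin 24 h, and 1110.4 and 1076 for curcumin 48 h. The highest library was between 1.15-fold and 1.23-fold above the lowest for these 5. The 5 with the largest SD were tetur12g01560, tetur18g03020, tetur01g13320, tetur31g00820 and tetur01g16874, with 0.88, 0.55, 0.52, 0.51 and 0.47, and 4 of them were under 400 bp. tetur31g00820 (277 bp) had an RPKM of 3697 and 3532 for solvent 24 h, 3014 and 2010.2 for solvent 48 h, 5192 and 6278 for curcumin 24 h, and 2795 and 3568 for curcumin 48 h. Its curcumin libraries at 24 h were the highest, followed by the solvent libraries at 24 h and 1 curcumin library at 48 h.

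Spearman's rho between gene model length and the SD was -0.507 over the 70 transcripts and -0.523 over the genes listed in all 8 libraries. The median SD was 0.28 for the 20 transcripts under 400 bp, 0.28 for the 32 of 400 to 1000 bp and 0.15 for the 18 over 1000 bp. Among genes with a mean RPKM of 100 to 1000 the same classes had 0.29 (117 genes), 0.19 (332 genes) and 0.18 (288 genes). By these medians the class of 400 to 1000 bp differed most from the less abundant genes. The median length of the 70 was 613.5 bp, against 1326 bp, and 28.6% of them were under 400 bp, against 10.3% of the genes listed in all libraries.

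**Figure D4:**
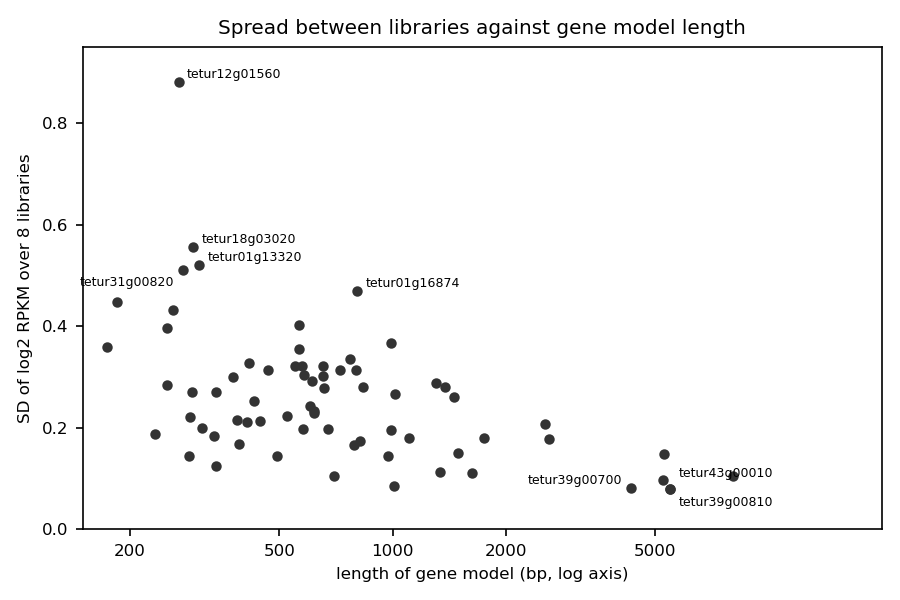
SD of log2 RPKM over the 8 libraries against gene model length in bp on a log axis, 1 point for each of the 70 transcripts. The 5 largest SD and the 3 smallest are named, and the 5 gene models over 5000 bp have a median of 0.10.

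Several of the 70 have identifiers that follow each other closely, and their ratios per length were compared after their values were seen. The transcripts tetur05g09110 and tetur05g09130 have the same length of 654 bp. The RPKM of tetur05g09130 was 1871 and 1795 for solvent 24 h, 1959 and 1353 for solvent 48 h, 2498 and 2384 for curcumin 24 h, and 1496 and 1735 for curcumin 48 h. The ratio of tetur05g09110 to tetur05g09130 stayed between 2.67 and 3.04 in the 8 libraries, a spread of 1.14-fold, while each of them alone spread over 1.82-fold and 1.85-fold. Both were highest in the curcumin libraries at 24 h. How the tool split reads between similar gene models is not given, so the levels of such pairs are uncertain. For tetur39g00810 and tetur39g00700 the ratio spread over 1.15-fold, against 1.22-fold and 1.15-fold for each alone, and for tetur43g00010 and tetur43g00020 over 1.36-fold, against 1.18-fold and 1.36-fold. For tetur18g03020 and tetur18g03040 the ratio spread over 2.38-fold, against 3.30-fold and 1.87-fold for each of them alone. For tetur18g03050 and tetur18g03030 the ratio spread over 2.60-fold, more than the 1.79-fold and 1.52-fold of each alone.

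Whether curcumin changed the transcripts was tested with edgeR's quasi-likelihood test over all 12227 genes that passed the filter on low counts, with Benjamini-Hochberg adjustment. At an FDR of 0.05 the test called 0 of the 70 transcripts at 24 h, at 48 h and for the average of both times, where it called 0.0%, 0.18% and 0.0491% of all genes. At an unadjusted p under 0.05 there were 12, 14 and 11 of the 70 (17.1%, 20% and 15.7%), against 7.39%, 7.84% and 7.05% of all genes. DESeq2 called 5, 3 and 6 of the 70 at an FDR of 0.05, against 0.655%, 0.546% and 0.49% of all genes to which it gave an adjusted p. With limma on log2(RPKM + 1) 0, 0 and 0 of the 70 were called, against 0.0%, 0.25% and 0.25% of all genes. The median log2 fold change of the 70 was 0.14 at 24 h and 0.01 at 48 h, against -0.01 and 0.00 over all genes tested. At 24 h 50 of the 70 had a positive and 20 a negative log2 fold change, and at 48 h 36 and 34. The curcumin and the solvent libraries did not overlap in RPKM, with curcumin higher, for 31 of the 70 at 24 h (44.3%, background 20.2%) and for 12 at 48 h (17.1%, background 15.8%). With curcumin lower they did not overlap for 11 at 24 h (15.7%, background 22.6%) and for 16 at 48 h (22.9%, background 17.3%). An absolute log2 fold change of 0.5 or more was reached at 24 h by 11 of the 70 (15.7%), against 13.6% of all genes. At 48 h it was reached by 9 of the 70, against 14.6% of all genes. For the average it was reached by 3 of the 70, against 7.35%. The solvent values in these comparisons are those that chose the transcripts.

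**Figure D5:**
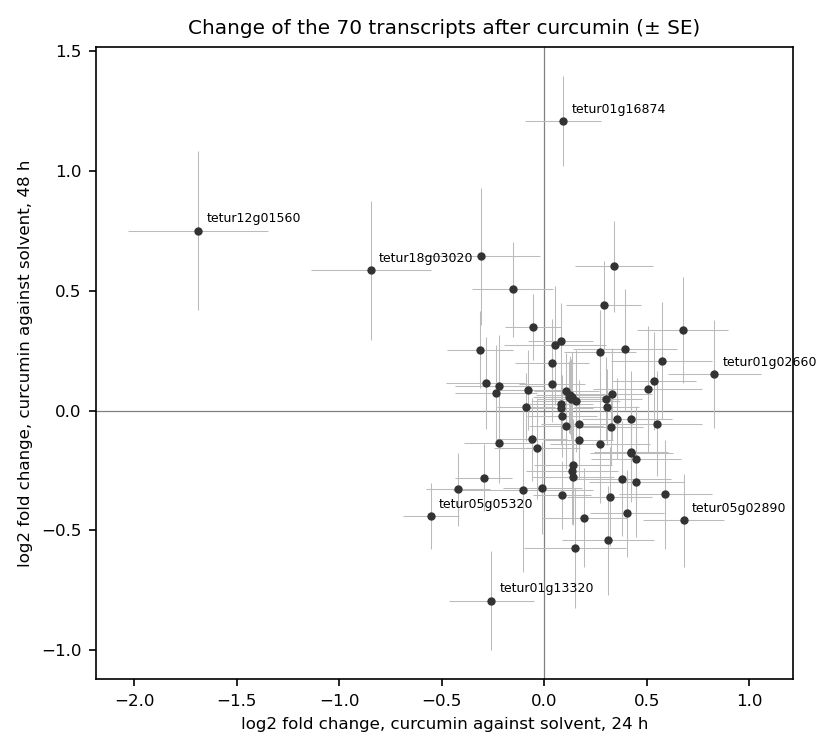
Log2 fold change of curcumin against solvent at 24 h (horizontal) and 48 h (vertical) by edgeR, 1 point for each of the 70 transcripts, with bars of 1 SE. An absolute value of 0.5 or more was reached by 11 transcripts at 24 h and 9 at 48 h, and tetur12g01560 at 24 h and tetur01g16874 at 48 h lie past an absolute value of 1.

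The lowest adjusted p in a curcumin comparison was that of tetur01g16874 at 48 h, the transcript listed under lysine degradation. tetur01g16874 (807 bp) had an RPKM of 2582 and 2255 for solvent 24 h, 1653 and 1884 for solvent 48 h, 2447 and 2672 for curcumin 24 h, and 4603 and 3469 for curcumin 48 h. Both curcumin libraries at 48 h were above the other 6. The mean was 1768 ± 164 (SD, n = 2) in solvent and 4036 ± 802 (SD, n = 2) in curcumin at 48 h, and edgeR put the log2 fold change at 1.21 (SE 0.19, BH-adjusted p = 0.0506), just above the limit of 0.05. With 1 library left out the log2 fold change ran from 0.95 to 1.43 and the adjusted p from 0.0515 to 0.262. Scaling by library size only gave an adjusted p of 0.0341 by edgeR, upper quartile scaling gave 0.0489 and DESeq2 gave 1.61e-11. At 24 h its log2 fold change was 0.09 (SE 0.19). The difference between both times was 1.12 (SE 0.26, edgeR adjusted p = 0.368, DESeq2 adjusted p = 0.000756). The study lists this gene among those it called at 48 h, so it is not independent evidence.

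The largest change at 24 h was that of tetur12g01560, the transcript listed under regulation of the actin cytoskeleton. The study measured it by qRT-PCR too, and its primers, which identify the RNA that was amplified, are written in lower case from 5′ to 3′ with no part marked.
forward primer: tgctttccttccctctgttg
reverse primer: gaagcctccacgaccataac

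tetur12g01560 (270 bp) had an RPKM of 3116 and 1681 for solvent 24 h, 1541 and 1789.7 for solvent 48 h, 958 and 517 for curcumin 24 h, and 3144 and 2393 for curcumin 48 h. Both curcumin libraries at 24 h were below all other libraries. The mean was 2399 ± 1015 (SD, n = 2) in solvent and 738 ± 312 (SD, n = 2) in curcumin at 24 h. The log2 fold change was -1.69 (SE 0.34, edgeR adjusted p = 0.373), and with 1 library left out it ran from -2.20 to -1.18. By DESeq2 the adjusted p was 0.0479. At 48 h the log2 fold change was 0.75 (SE 0.33, edgeR adjusted p = 0.632), the opposite direction, with the difference between the times at 2.44 (SE 0.48, edgeR adjusted p = 0.294, DESeq2 adjusted p = 0.0494). The study lists it among the genes called at 24 h, which is not independent of these libraries. The paper reports that every gene measured by qRT-PCR changed in a direction resembling that in RNA-Seq. It adds that the size of some changes did not match fully, and it hedges its closing statement on direction with the word almost. Its text gives no qRT-PCR value for tetur12g01560.

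Only 1 of the 70 transcripts had all 4 curcumin libraries on 1 side of all 4 solvent libraries, against 1.36% of all genes with curcumin lower and 1.23% with curcumin higher. This transcript, tetur05g05320, was named after its values were seen. tetur05g05320 (376 bp) had an RPKM of 1191 and 1102 for solvent 24 h, 946 and 1089 for solvent 48 h, 711 and 839.9 for curcumin 24 h, and 689.6 and 799.8 for curcumin 48 h. The log2 fold change was -0.55 (SE 0.14) at 24 h, -0.44 (SE 0.14) at 48 h and -0.50 (SE 0.10, edgeR adjusted p = 0.223, DESeq2 adjusted p = 0.000115) for the average. With 1 library left out the average ran from -0.55 to -0.44. It lies near the limit of 1000, and the solvent values compared are those that chose it.

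Among the first 3 transcripts, the log2 fold change of tetur01g02660 was 0.83 at 24 h (SE 0.23, edgeR adjusted p = 0.519, DESeq2 adjusted p = 0.00237) and 0.15 at 48 h (SE 0.23). For tetur18g03020 it was -0.85 at 24 h (SE 0.29, edgeR adjusted p = 0.598) and 0.59 at 48 h (SE 0.29). For tetur09g03620 it was 0.59 at 24 h (SE 0.23) and -0.35 at 48 h (SE 0.23). None of these 3 passed an FDR of 0.05 by edgeR. The long tetur39g00810 had 0.11 (SE 0.18) and -0.06 (SE 0.18), and tetur43g00010 had -0.08 (SE 0.17) and 0.09 (SE 0.17). For tetur03g09300, with the most reads, the values were -0.06 (SE 0.17) and -0.12 (SE 0.17).

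By length, the 32 transcripts of 400 to 1000 bp had a median log2 fold change of 0.32 at 24 h, with 27 positive and 5 negative. Over the 2893 genes of that length the median was -0.04, and 45.0% were positive. At 48 h the median of the 32 was -0.05, with 14 positive and 18 negative, against -0.04 and 45.8% positive over the 2893 genes. The 20 under 400 bp had medians of -0.01 at 24 h and 0.18 at 48 h, against -0.12 and 0.04 over the 1195 genes of that length. The 18 over 1000 bp had 0.10 and -0.04, against 0.00 and 0.01 over 8105 genes. The length classes were set with the values known, and these medians were not tested.

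The difference between the curcumin changes at 48 h and 24 h had a test of its own. The quasi-likelihood test of edgeR called 0 of the 70 at an FDR of 0.05 (background 0.0%). An unadjusted p under 0.05 was seen for 13 of the 70 (18.6%, background 8.11%). An absolute value of 0.5 or more was seen for 21 of the 70, against 24.5% of all genes. DESeq2 called 5, namely tetur01g16874, tetur05g02890, tetur09g03620, tetur12g01560 and tetur30g01850 (background 0.464%), and limma on log2(RPKM + 1) called 0 (background 0.18%). Separation of treatments in opposite directions at the 2 times was seen for 8 of the 70. As counts out of 70, 5 were higher at 24 h and lower at 48 h (4.25% of all genes), and 3 the reverse (3.65% of all genes).

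The change with time was tested within each treatment. From 24 h to 48 h edgeR called 0 of the 70 in solvent (background 0.188%) and 0 in curcumin (background 0.425%) at an FDR of 0.05. At an unadjusted p under 0.05 there were 11 in solvent (15.7%, background 10.1%) and 12 in curcumin (17.1%, background 12.8%). DESeq2 called 4 (background 1.03%) and 9 (background 1.46%), and limma on log2(RPKM + 1) called 0 (background 0.00781%) and 0 (background 0.25%). An absolute log2 fold change of 0.5 or more was seen for 9 of the 70 in solvent, against 16.3% of all genes. In curcumin it was seen for 12 of the 70 (17.1%), against 18.2% of all genes. In solvent 44 of the 70 had a positive log2 fold change and 26 a negative one, and with scaling by library size only 37 and 33. In curcumin the split was 30 and 40. The libraries did not overlap in solvent for 24 transcripts that were higher at 48 h (34.3%, background 15.9%) and 12 that were lower (17.1%, background 24.9%). In curcumin they did not overlap for 17 that were higher (24.3%, background 18.3%) and 24 that were lower (34.3%, background 27.2%).

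In solvent the lowest adjusted p belonged to tetur30g01850, with a log2 fold change from 24 h to 48 h of 0.87 (SE 0.18, edgeR adjusted p = 0.135, DESeq2 adjusted p = 2.22e-05), and in curcumin its value was 0.04 (SE 0.18). For tetur01g13320 the log2 fold change in solvent was 0.98 (SE 0.21, edgeR adjusted p = 0.143, DESeq2 adjusted p = 9.04e-06) and in curcumin 0.44 (SE 0.21). For tetur18g03050 it was 0.71 in solvent (SE 0.18, edgeR adjusted p = 0.227, DESeq2 adjusted p = 7.94e-05) and 0.11 in curcumin (SE 0.18). The solvent libraries at 24 h and 48 h did not overlap for any of these 3. In curcumin the lowest adjusted p belonged to tetur12g01560, at 1.96 (SE 0.34, edgeR adjusted p = 0.0515, DESeq2 adjusted p = 0.00413), followed by tetur18g03020 at 1.32 (SE 0.30, edgeR adjusted p = 0.109, DESeq2 adjusted p = 0.0378). With 1 library left out, the value of tetur12g01560 ran from 1.58 to 2.48 and that of tetur18g03020 from 0.86 to 1.66.

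One test over all 4 groups together asked whether any of them differed. It called 0 of the 70 by edgeR at an FDR of 0.05 (background 0.532%). At an unadjusted p under 0.05 there were 16 (22.9%, background 12.3%). DESeq2 called 15 (background 2.75%) and limma on log2(RPKM + 1) called 0 (background 0.305%). The lowest adjusted p by edgeR was 0.0709, for tetur01g16874, followed by 0.0787 for tetur01g13320. The 15 by DESeq2 were tetur01g02660, tetur01g13270, tetur01g13320, tetur01g16874, tetur05g02890, tetur05g05320, tetur05g09110, tetur09g04580, tetur12g01560, tetur18g03040, tetur18g03050, tetur19g02170, tetur30g01850, tetur31g00820 and tetur39g00530.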

How the data were processed

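RNA-Seq was run on whole adult mites in 8 libraries, 2 for each of the 4 groups in the labels (solvent or curcumin at 2.64 mg/mL, 24 h or 48 h). By the methods of the study, single-end Ion Proton reads were cleaned and aligned by T-Map against the genome of T. urticae. The authors deposited for each library the expected count per gene model, an estimated number of reads that need not be whole. They also deposited the RPKM, which by their methods is scaled by length and mapped reads. The sources used here name neither the estimating tool nor the annotation release. Only genes above 0 are listed, and a missing gene was taken as 0.

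The estimated reads were rounded to whole numbers. R 4.3.3 ran the main test, edgeR 4.0.16 quasi-likelihood (robust, TMM scaling, low counts removed by filterByExpr, 4 groups without a replicate block, 12227 genes, Benjamini-Hochberg adjustment, FDR 0.05). The SE was taken from the F statistic. Alternatives were DESeq2 1.42.0, limma 3.58.1 on log2(RPKM + 1) and log2(RPKM + 0.1), other scalings, no filter, the replicate block and leaving out single libraries. All 3 tools were first tested on simulated data. Of 50 simulated 2-fold changes at 24 h, edgeR recovered 27, DESeq2 26 and limma 24. Of 100 changes of 4-fold they recovered 86, 81 and 77. Unchanged genes were called 15, 12 and 14 times in the same order. The simulated counts had the spread fitted for genes of like level, without further differences in spread between genes. Recovery in the real libraries may therefore be lower. Changes below 2-fold were not simulated, so a count of 0 called does not show that such changes are absent. Python 3.11.15 with pandas 2.3.3 and numpy 2.4.6 gave the other values.

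Depth was between 8033325 and 8617973 estimated reads per library. P-values of edgeR rest on the spread between the 2 libraries within each of the 4 groups, fitted together with 4 residual degrees of freedom. Information on this spread was shared across the 12227 genes tested. By the methods a replicate came from an independent experiment, and whether groups shared an experiment is not given. Transcripts named with values per library are the first 20 by RPKM, the first 10 by reads, the 5 with the largest and smallest SD, those next to the limit of 1000, those in the tables of the study and any past an FDR of 0.05, of which there were 0 by edgeR. Any other named transcript was picked with its values in view. The transcripts and lists were chosen with earlier results of these data known. Gene classes by product name could not be filled.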

Additional observations from a re-analysis of the deposited data

How the results depend on the processing

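Of the 157 values recomputed under another setting, 135 stayed within 1.5 times the count or within the spread between replicates, and the following did not. DESeq2 called 5 of the 70 transcripts at 24 h, 3 at 48 h, 6 for the average, 5 for the difference between times, 4 for time in solvent, 9 for time in curcumin and 15 for any difference among the groups (0.655%, 0.546%, 0.49%, 0.464%, 1.03%, 1.46% and 2.75% of all genes with an adjusted p), where edgeR called 0 in all 7 tests. At 48 h edgeR called 1 with scaling by library size only and 1 with upper quartile scaling, tetur01g16874 both times, with 0.204% of all genes called under either. With each library left out in turn, edgeR called 0 to 1 for time in solvent, with tetur01g02660 called without the second solvent library at 48 h (0.229% of all genes). For any difference it called 0 to 2, with tetur01g02660 and tetur31g00820 called without the first (0.393% of all genes) and tetur01g02660 without the second solvent library at 48 h (0.575%). The counts for the other 5 tests stayed at 0. The limit of FDR 0.001 with an absolute log2 fold change of 1 could not be applied to the test over 4 groups, which has no single fold change. A mean RPKM of 500 or more gave 144 transcripts with 39.9% of the reads, and 2000 or more gave 26 with 24.0%, against 70 with 33.6%. Length over 300 bp gave 31.7% of the reads. The median Spearman correlation between libraries of different groups was 0.946 on TMM-scaled CPM, which keep differences in length, and 0.757 for the 26 transcripts with 2000 or more. The causes of the differences between tools were not tested.

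Whether libraries with the same replicate number in different groups shared an experiment is not given. The differences between replicates 1 and 2 had correlations from -0.0875 to 0.164 between groups over all genes tested. Over the transcripts described here they ran from -0.396 to 0.278. These values cannot decide the question, since no groups known to share an experiment were at hand for comparison. With the replicate number as a block, edgeR called 1 transcript for time in solvent (tetur01g13320, with 0.204% of all genes called), 1 for time in curcumin (tetur12g01560, 0.589%), 2 for any difference (the same 2, 0.581%) and 0 in the other tests.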
